A study of Mus musculus with 6 samples.

Results

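The IGF2BP, LIN28 and HMGA genes are 7 genes whose products are abundant in the embryo and often found again in tumours. Apart from Igf2bp2, which adult tissues keep, they are silent or low in most adult tissues. The 7 are Igf2bp1, Igf2bp2, Igf2bp3, Lin28a, Lin28b, Hmga1 and Hmga2. They are 7 of the 55401 genes listed for each of 6 mouse cancer cell lines, and were taken by symbol. They were chosen by the normalized counts of Igf2bp1, which was expressed in the lines labelled Rag1KO and nearly absent in those labelled WT, so its difference between the groups is given below as a description, without a test. Families are described in the order of their roles, from the RNA-binding proteins to the chromatin proteins.

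The lines were cultured from primary tumours of C57BL/6 mice. Of the hosts, those of 3 lines were labelled WT (WT 2, WT 4 and WT 6) and those of the other 3 Rag1KO (Rag1KO 1, Rag1KO 3 and Rag1KO 7), Rag1 being needed to assemble the antigen receptors of T and B cells. All 6 were treated alike, the tumours being minced, digested with collagenase, dispase and trypsin, and the cells grown in DMEM with serum, and the labels name no agent for either group. They give neither the tumour type nor the age and sex of the hosts. Each line is a single culture. Whether the 3 lines of a group trace to separate mice is not given, and p-values therefore reflect only the spread between these samples, which may be technical.

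In the embryo these genes form a circuit. LIN28A and LIN28B are RNA-binding proteins that stop precursors of the let-7 microRNAs from maturing, and let-7 in turn represses the mRNAs of both LIN28 genes, the IGF2BP genes and the HMGA genes. The IGF2BP proteins bind mRNAs in the cytoplasm, among them mRNAs carrying the methylated base m6A, and protect or transport them, whereas HMGA1 and HMGA2 are small proteins that bend AT-rich DNA and open chromatin. In connective tissue and its tumours HMGA2 is among the best known of these genes.

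A let-7 site in an mRNA is a stretch of its 3′ UTR (the untranslated part after the stop codon) that pairs with the seed, bases 2 to 8 of the microRNA. Of the 11 mature let-7 family members in RefSeq (build GRCm38.p6, the assembly called mm10), 10 share 1 seed, shown in capitals in 4 of them because every site below pairs with it:
let-7a-5p: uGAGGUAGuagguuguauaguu
let-7c-5p: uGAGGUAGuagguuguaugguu
let-7e-5p: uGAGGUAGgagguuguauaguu
let-7g-5p: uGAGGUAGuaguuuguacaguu
The motif that pairs with this seed is CTACCTC. It was searched on the mRNA strand alone in the longest annotated 3′ UTR of each gene in GENCODE M21, the mouse annotation on mm10.

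All 7 genes held the motif. Igf2bp1, Lin28b and Hmga2 each held 4 matches, Lin28a held 2, and Igf2bp2, Igf2bp3 and Hmga1 held 1 each. Of 21022 genes with a protein-coding transcript and a 3′ UTR, 9.02% held at least 1 match and 12 genes held 4 or more, so the 3 genes with 4 matches stand among those 12. A long UTR holds more matches by length alone. Among genes with a 3′ UTR of like length (0.8 to 1.25 times), 34.3% held a match for Igf2bp1 (UTR of 6337 bases), 24.3% for Lin28b (4445 bases) and 16.04% for Hmga2 (3014 bases), whereas 4 or more were held by 0.331%, 0.295% and 0.123%. For the genes with 1 match, the share with a match at like length was 12.1% for Igf2bp2, 13.3% for Igf2bp3 and 8.24% for Hmga1. A match is a description of the letters and not evidence that let-7 acts there.

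The sites of the genes that differed most between lines in the values below are shown as the DNA letters of the mRNA strand, with the motif in capitals and mm10 coordinates. A site whose motif is followed by an A is the longer form that microRNAs are known to bind better:
Igf2bp1, first site, chr11:95961778-95961803, minus strand: agtgctgtgcgaagtaaaCTACCTCa
Igf2bp1, second site, chr11:95959357-95959382, minus strand: aaccagcagtgctattaaCTACCTCa
Igf2bp1, next-to-last site, chr11:95958763-95958788, minus strand: cgagtataaatggatgaaCTACCTCa
Igf2bp1, last site, chr11:95958140-95958165, minus strand: ttcacttttggttttaatCTACCTCt
Igf2bp3, chr6:49086787-49086812, minus strand: acgtgcatttttactcaaCTACCTCa
Hmga1, chr17:27563274-27563299, plus strand: ttctcctctgttcacaaaCTACCTCt
Hmga2, first site, chr10:120364224-120364249, minus strand: ggcgccgacattcaatttCTACCTCa
Hmga2, second site, chr10:120362987-120363012, minus strand: aatccccactcctcaataCTACCTCt
Hmga2, next-to-last site, chr10:120362549-120362574, minus strand: ttcctgatttgcaaggaaCTACCTCc
Hmga2, last site, chr10:120361691-120361716, minus strand: tacaatcaaaacacactaCTACCTCt
In Igf2bp1 3 of the 4 motifs are followed by an A, and in Hmga2 the first of the 4 is.

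**Figure D1:**
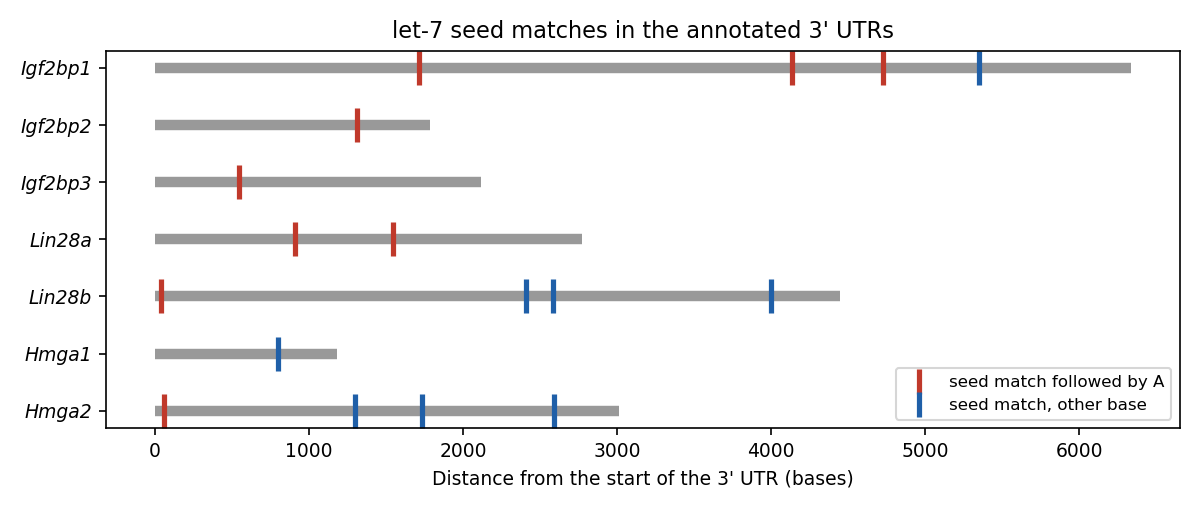
Positions of the let-7 seed motif in the longest annotated 3′ UTR of each of the 7 genes, as the distance in bases from the start of the UTR. Grey bars are drawn to the length of the UTR, red marks are motifs followed by an A and blue marks motifs followed by another base. Igf2bp1, Lin28b and Hmga2 carry 4 marks each, and Hmga1, Igf2bp2 and Igf2bp3 carry 1.

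Libraries held 55409583 to 62998051 reads in genes. Values are reads divided by 1 size factor per library, called normalized counts. A gene with 0 reads could still stand at up to 3 reads, which is 2.64 to 3.48 normalized counts, a limit that covers counting error only. Rag1 itself had 39.3, 126 and 177 normalized counts in Rag1KO 1, 3 and 7 and 0 reads in the lines labelled WT. The reads lie in lines whose label names the gene as deleted, and gene counts do not show which part of Rag1 they cover, so directions below follow the labels as given. WT 6 stood apart. Its collagen gene Col1a1 was at 206 normalized counts against 478322 or more in the other 5 lines, and Thy1, a surface marker of fibroblasts, was at 0.880 against 29802 or more. Xist, whose RNA coats the inactive X chromosome of female cells, was at 59775.5 and 32733 normalized counts in WT 2 and WT 4 and at most 15.3 in the rest, and Y-linked Kdm5d was at 1161 to 1994 in WT 6 and the lines labelled Rag1KO and had 0 reads in WT 2 and WT 4. The 8 fibroblast markers listed summed to 295796 normalized counts in WT 6 and to 1071382 or more elsewhere. Not all of them were low in WT 6. Pdgfra was at 16592 there against 7299 to 48300 in the other lines, and Col3a1 at 126015 against 105461 to 350041. Col1a2 was lowest in WT 6, at 151806 against 434020 or more. The 10 leukocyte markers summed to 132 to 1779.6, of which Cd3e, Ms4a1 and Tyrobp had 0 reads in every line, as did epithelial Epcam and skeletal muscle Myod1. Other markers of the epithelial and muscle lists had reads. The 8 epithelial markers summed to 10.6 normalized counts in WT 6 and to 1762 to 6337 elsewhere. The 7 skeletal muscle markers summed to 2950 in WT 6 and to 23.3 to 379 elsewhere.

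Igf2bp1 (chr11:95957163-96005940, minus strand) was expressed in the 3 lines labelled Rag1KO and close to absent in those labelled WT. It encodes the IGF2BP protein most tightly limited to the embryo, first known for stabilising Myc mRNA and carrying beta-actin mRNA. Its level was 1549 normalized counts in Rag1KO 1, 749 in Rag1KO 3 and 199 in Rag1KO 7, from 1616, 646 and 205 reads. In the lines labelled WT it was 7.05 in WT 2, 24.1 in WT 4 and 0.880 in WT 6, from 7, 25 and 1 reads. The groups did not overlap, and the lines labelled Rag1KO also differed among themselves, the first holding several times the level of the last. The means were 10.7 ± 12.05 normalized counts in the lines labelled WT and 832 ± 679 in those labelled Rag1KO (SD, n = 3 each). On the scale of log2(normalized count + 1) the difference, WT minus Rag1KO, was −6.41. Without WT 6 it was −5.43. Because this separation chose the 7 genes, it is not tested here, and for 904 of the 16137 genes tested, or 5.6%, the groups lay apart in the same direction. In these cultures fewer cells expressing a gene and less of its RNA in each cell cannot be told apart.

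Some sex-linked genes moved with the labels. Eif2s3y, which is Y-linked, had 0 reads in WT 2, WT 4 and WT 6 and 1438 to 2944 normalized counts in the lines labelled Rag1KO, the same separation as Igf2bp1. Kdm5d, Uty and Ddx3y, also Y-linked, were expressed in WT 6 and in the lines labelled Rag1KO. The part of the sex of the cells in the difference of Igf2bp1 was not tested.

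**Figure D2:**
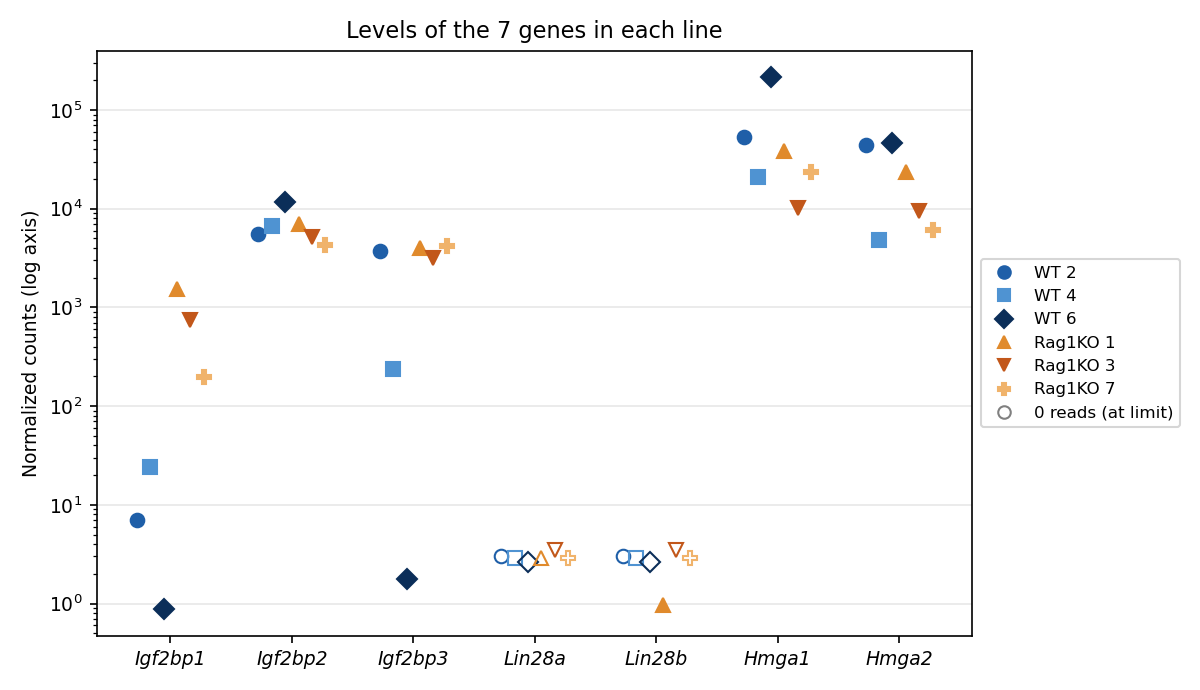
Normalized counts (log axis) of the 7 genes, each point 1 line, blue for lines labelled WT and orange for lines labelled Rag1KO. Open symbols mark 0 reads, drawn at the limit that a count of 0 allows, so the 1 read of Lin28b in Rag1KO 1 lies below them. Igf2bp1 has all orange points above all blue ones, whereas the groups overlap for Igf2bp2, Igf2bp3, Hmga1 and Hmga2. Levels of different genes are not on a common scale here.

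Igf2bp3 (chr6:49085223-49214957, minus strand), the second paralogue limited to the embryo and a frequent tumour marker, was low in 2 of 3 lines labelled WT. Lines labelled Rag1KO held 4026, 3137 and 4201 normalized counts, and WT 2 was level with them at 3733. WT 4 was at 236 and WT 6 at 1.76, the latter from 2 reads. WT 4 and WT 6 thus lay below every line labelled Rag1KO, while WT 2 lay within their range. The means were 1324 ± 2090 normalized counts in the lines labelled WT and 3788 ± 571 in those labelled Rag1KO (SD, n = 3 each). The log2 difference was −4.80 with an interval at 95% from −10.90 to 1.30, and it did not pass in limma (adjusted p = 0.85). Without WT 6 it was −1.999 (limma, adjusted p = 0.982). In 2 of 3 lines labelled WT, then, Igf2bp1 and Igf2bp3 were both low, and in WT 2 Igf2bp1 alone was.

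Igf2bp2 (chr16:22059009-22163299, minus strand), the paralogue that adult tissues keep and a known target of HMGA2, was present in all 6 lines. The lines labelled WT held 5586, 6648 and 11623 normalized counts in WT 2, 4 and 6, and those labelled Rag1KO held 7014, 5192 and 4301. WT 6 was the highest line and the other 5 overlapped. The log2 difference was 0.49 (interval at 95% from −0.34 to 1.31), which did not pass in limma (adjusted p = 0.85), and without WT 6 it was 0.18.

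Set per kilobase of merged exons, which allows paralogues to be compared, Igf2bp2 was the main IGF2BP mRNA in every line, although in Rag1KO 7 this depended on the length used. With the longest annotated transcript as length, Igf2bp3 took 52.0% there and Igf2bp2 46.7%. The 3 paralogues summed to 929 to 1601 normalized counts per kilobase, and the groups overlapped: WT 2, 4 and 6 stood at 1213, 929 and 1571, and Rag1KO 1, 3 and 7 at 1601, 1163 and 1116. The make-up of the sum varied between lines. The Igf2bp1 share follows the counts that chose the 7 genes, so its separation between the groups is a description only. In lines labelled Rag1KO, Igf2bp2 took 59.2%, 60.3% and 52.0% of the sum, Igf2bp3 30.8%, 33.0% and 46.1%, and Igf2bp1 9.99%, 6.65% and 1.84%. In WT 2 the shares were 62.2% for Igf2bp2, 37.7% for Igf2bp3 and 0.0600% for Igf2bp1. The Igf2bp3 share of WT 2 lay within the range of the lines labelled Rag1KO, its Igf2bp1 share below it and its Igf2bp2 share just above it. In WT 4 Igf2bp2 took 96.6% and in WT 6 99.98%. The shares sum to the whole, so a higher share of one paralogue lowers the others by arithmetic.

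**Figure D3:**
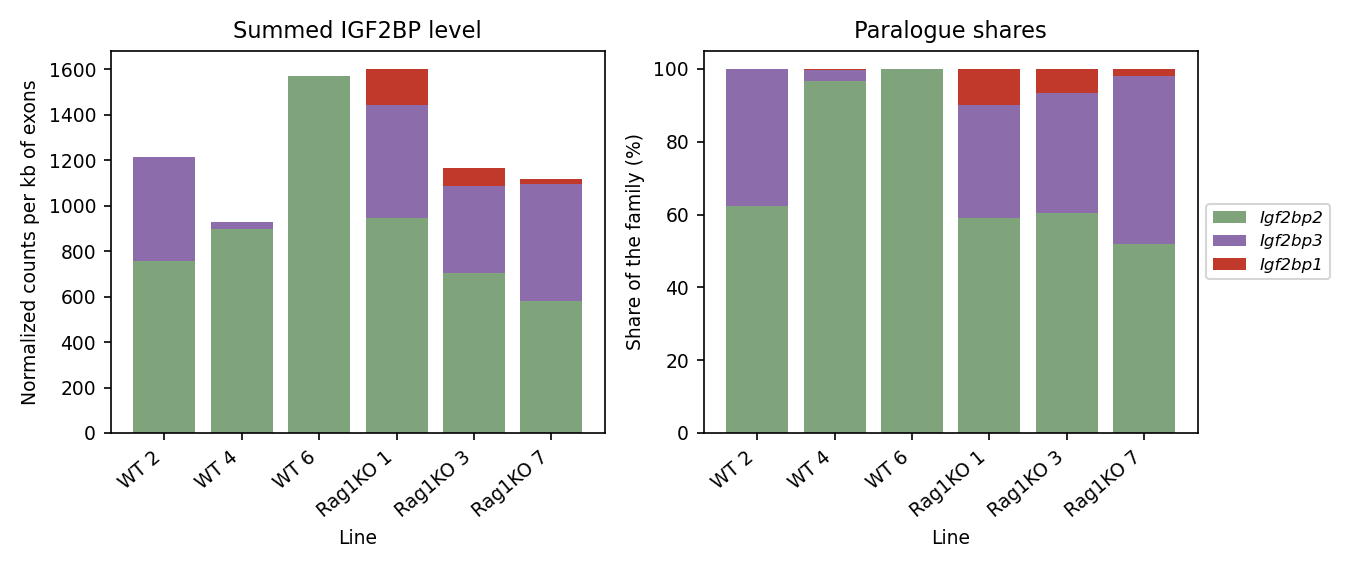
Left, level of the 3 IGF2BP paralogues stacked, in normalized counts per kilobase of merged exons; right, the share of each paralogue in that sum (%), for each line. Igf2bp2 (green) takes 52.0% or more in every line, Igf2bp3 (purple) is at most 3.11% in WT 4 and WT 6, and Igf2bp1 (red) reaches 1.84% to 9.99% in lines labelled Rag1KO and at most 0.268% in lines labelled WT.

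Neither LIN28 gene was detected above 1 read. Lin28a (chr4:134003330-134018841, minus strand) had 0 reads in all 6 libraries, and Lin28b (chr10:45376620-45486395, minus strand) had 1 read in Rag1KO 1 and 0 in the other 5. Both failed the filter on low counts and have no test. Hmga1, Hmga2 and Igf2bp2, at 4301 normalized counts or more in every line, were thus measured beside LIN28 mRNA at 0 or 1 reads.

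Hmga2 (chr10:120361275-120476469, minus strand), which is expressed in embryonic mesenchyme and rearranged in many benign mesenchymal tumours, varied widely between lines without following the labels. WT 2 and WT 6 were the highest, at 43856 and 46755 normalized counts, and WT 4 was the lowest at 4873. The lines labelled Rag1KO lay between them, at 23676, 9536 and 6056. The log2 difference was 0.96 (interval at 95% from −1.51 to 3.42) and did not pass in limma (adjusted p = 0.858), and without WT 6 it was 0.40.

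Hmga1 (chr17:27556497-27563674, plus strand), the relative with a broader role in dividing and tumour cells, stood out in 1 line. WT 6 held 214406 normalized counts, against 53038 in WT 2, 21062 in WT 4, and 38821, 10224 and 23541 in Rag1KO 1, 3 and 7. WT 2 and WT 6 lay above every line labelled Rag1KO and WT 4 did not. The means were 96169 ± 103637 and 24195 ± 14310 normalized counts (SD, n = 3 each), lines labelled WT first. The log2 difference of 1.56 (interval at 95% from −0.73 to 3.85) did not pass in limma (adjusted p = 0.85), and it was 0.67 without WT 6.

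Reads of Hmga1 cannot be fully separated from those of Hmga1b (chr11:120762794-120764419), a near copy of its mRNA elsewhere in the genome. Of the stretches of 50 bases in Hmga1b transcripts, 89.0% also occur in Hmga1 transcripts, and of those in Hmga1 55.0% occur in Hmga1b. Hmga1b followed Hmga1 in every line, from 6134 normalized counts in Rag1KO 3 to 127994 in WT 6, and the ratio of Hmga1 to Hmga1b was 1.67 to 1.69 in all 6. The same 26-base let-7 site stands in both. The level of Hmga1 is thus uncertain by the share that the authors' counting gave to its copy. The order of the lines is the same for both genes, but shared reads alone would give the same order. Hmga1b is therefore not an observation independent of Hmga1. No stretch of 50 bases was shared between Hmga1 and Hmga2 or among the 3 IGF2BP genes.

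Of the 6 genes other than Igf2bp1, 4 could be tested and 0 passed in limma, where 0.0062% of the 16137 genes tested passed. That share is Y-linked Eif2s3y alone. At an unadjusted p under 0.05 there were 0 of 4 in limma and in edgeR, and 1 of 3 in DESeq2 (Hmga1, adjusted p = 0.665), which gave no p for Igf2bp3. Of all 16137 genes tested, 754 were under that level in limma and 717 in edgeR. No tool called any of the 4 at an adjusted p under 0.05, where DESeq2 called 0.41% of all genes and edgeR 0. The groups of none of the 4 lay apart, where 12.1% of all genes tested did in either direction, 6.49% with the lines labelled WT higher. The interval of each difference is wide, and a change of several fold in Hmga1, Hmga2 or Igf2bp3 could not be told from none with these 6 lines.

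Across genes, levels per kilobase ran in the order Hmga1, Hmga2, Igf2bp2, Igf2bp3 and Igf2bp1 by their means over the 6 lines. Hmga1 ranged from 4811 to 100897 normalized counts per kilobase and Hmga2 from 720 to 6904. Hmga2 and Igf2bp2, which ranged from 581 to 1570, overlapped, and in WT 4 Igf2bp2 was the higher of the pair. Igf2bp3 (0.216 to 515) was below Igf2bp2 in every line by merged exons, and above Igf2bp1 (0.0909 to 160) in every line, although in WT 6 the 2 and 1 reads of these genes do not tell them apart. Among the genes tested, Hmga1 stood above 93.3% or more of them in each line by normalized counts, which are not set per length.

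The genes nearest to each member showed no call of their own. Snf8, which lies 28945 bases from Igf2bp1 and encodes a protein of endosomal sorting, was at 1739 to 2347 normalized counts in all 6 lines. On the other side of Igf2bp1, Gngt2, a G protein subunit gene, was at 837.7 normalized counts in Rag1KO 3 and 66.8 to 184 in the other lines except WT 6, which had 0 reads, and it followed no label. Malsu1, a mitochondrial ribosome assembly factor gene that overlaps Igf2bp3 on the other strand, was at 412 to 544 normalized counts in lines labelled WT and 364 to 405 in those labelled Rag1KO. Its level in WT 6, 412, was thus kept where Igf2bp3 had 2 reads. Of the neighbours of Hmga2, Llph was highest in WT 2 at 5981 normalized counts and lowest in Rag1KO 7 at 1491, and Msrb3 was lowest in WT 6 at 1715 and at 10612 or more in the other lines. The 2 neighbours of each of the 7 genes made 14 genes, and 0 passed in limma (0 at an unadjusted p under 0.05 there, in edgeR and in DESeq2). Antisense transcripts lie over Hmga1 (Gm49774, 19.7 to 568 normalized counts) and Hmga2 (1700006J14Rik, 3.88 to 100.3). Both had their highest level in WT 6, as did the genes they overlap, and whether reads were counted by strand is not given in the sources used here.

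The genes whose pattern over the 6 lines was most like that of Igf2bp1 were sought among 3141 genes with an SD of at least 1 on the log2 scale. Pearson's r on log2(normalized count + 1) was 0.99 for Cgref1, a gene for a secreted growth regulator, which was at 22.2, 57.9 and 6.16 normalized counts in WT 2, 4 and 6 and at 787, 353 and 294 in Rag1KO 1, 3 and 7. It was also 0.99 for Mab21l3 and for Atp2b3, a plasma membrane calcium pump gene, and 0.98 for Plekhg6, for Slc2a9, a urate transporter gene, and for Avpr1a, a vasopressin receptor gene. Slc2a9 was at 119, 187 and 79.2 normalized counts in the lines labelled WT and at 560, 357 and 232 in those labelled Rag1KO. Avpr1a was at 14.1, 29.9 and 0 against 2462, 2328 and 108. The most opposed patterns were those of Prrg4 (r = −0.99), Klf5, a transcription factor gene (−0.97), and Arhgdib (−0.97). Prrg4 was at 407, 108 and 795 normalized counts in lines labelled WT and at 18.2, 29.0 and 57.2 in those labelled Rag1KO. With 6 points from libraries that share the separation of the groups, such values rank genes and test nothing. Among the members r with Igf2bp1 was 0.73 for Igf2bp3, −0.45 for Hmga2, −0.56 for Igf2bp2 and −0.72 for Hmga1.

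**Figure D4:**
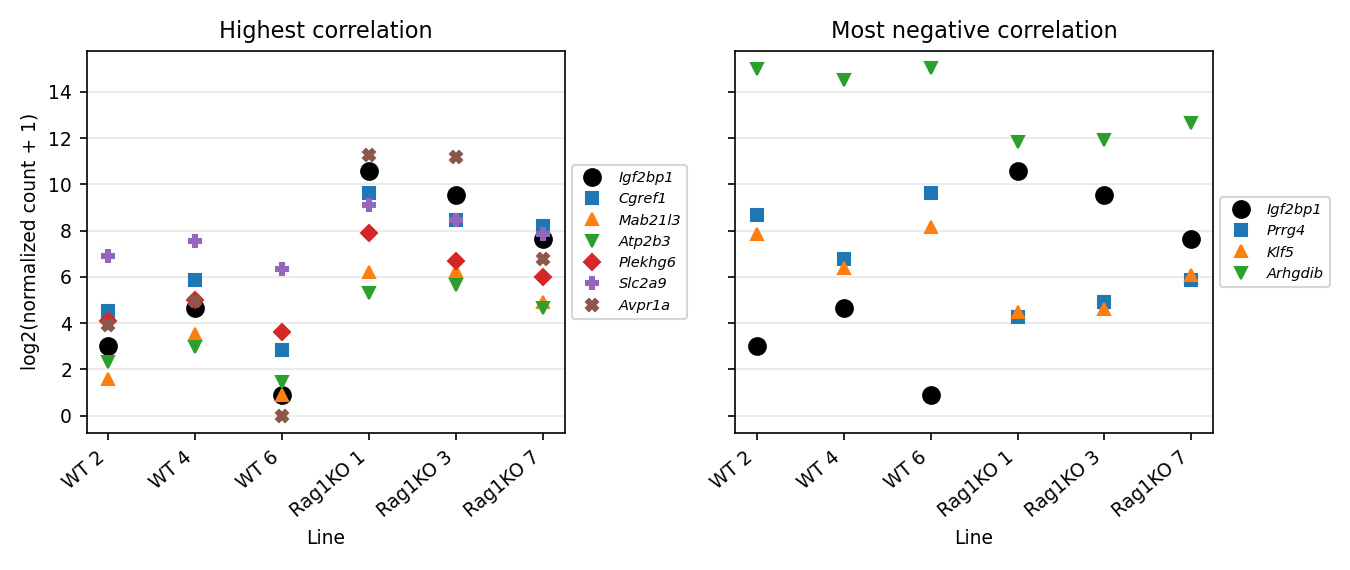
log2(normalized count + 1) of Igf2bp1 (black) in each line beside the 6 genes most like it (left) and the 3 most opposed (right). Genes on the left are higher in every line labelled Rag1KO than in every line labelled WT, and lowest in WT 6; those on the right show the reverse order of groups, Arhgdib lying between 23254 and 33500.5 normalized counts in lines labelled WT and at most 6436.5 in those labelled Rag1KO.

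Genes of the surrounding pathway did not pass. Over the lists of genes linked to the 7, 117 genes were tested and 0 passed in limma, edgeR or DESeq2, with 2, 0 and 3 at an unadjusted p under 0.05. At that unadjusted level stood 754 of all 16137 genes tested in limma and 717 in edgeR. Adjusted p in limma lay between 0.85 and 0.9998. Of the 117, 10 genes, or 8.55%, had groups that lay apart, where 12.1% of all genes did. The median log2 difference over all genes tested was 0.00, and 0.01 without WT 6.

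Genes that make and use let-7 were split evenly between directions. Of 21 genes of microRNA processing, among them Drosha, Dgcr8, Dicer1, the argonautes and the uridylating enzymes that LIN28 recruits, 11 had a positive and 10 a negative log2 difference, with a median of 0.00. Ddx17, a helicase of the Drosha complex, was at 24381, 26812 and 21259.5 normalized counts in lines labelled WT and at 30895, 36158 and 27917 in those labelled Rag1KO. Its groups lay apart, and its log2 difference of −0.39 (SE 0.19) did not pass in limma (adjusted p = 0.85). Dis3l2, the nuclease that destroys let-7 precursors tagged through LIN28, was at 863 ± 122.6 normalized counts against 650 ± 158 (SD, n = 3 each), lines labelled WT first. Ago3 was at 1901 ± 421 against 1460 ± 29.2 and Tarbp2, a partner of Dicer, at 1532 ± 425 against 2035 ± 338.

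Mature let-7 was not measured, since libraries of this kind do not capture RNAs of that size. Of the 12 let-7 and miR-98 genes in the files, Mirlet7e reached 16.2 normalized counts in Rag1KO 3, Mirlet7g had 1 read in 1 line, and the other 10 had 0 reads. Longer transcripts that contain let-7 hairpins were. Of 14 hairpins located, 12 lay inside 9 longer genes on the same strand, a set found by coordinates after the values were seen. Of the 8 hosts tested 7 had a negative log2 difference, with a median of −0.76, and 0 passed in limma (1 at an unadjusted p under 0.05), edgeR (1) or DESeq2 (1). The list of let-7 host transcripts among the lists linked to the 7 genes had 4 genes tested, 3 of them negative, with a median of −0.49. Spaca6, a sperm protein gene that contains the let-7e hairpin, was at 826, 969 and 1106 normalized counts in lines labelled WT and at 2078, 2060 and 1164 in those labelled Rag1KO. These groups lay apart by a narrow margin, and the log2 difference was −0.83 (SE 0.30; limma, adjusted p = 0.85). Spaca6 was the 1 host of the 8 (12.5%) whose groups lay apart, where 12.1% of all genes tested did. 2610203C20Rik, which contains let-7a-2, was at 5180, 2684 and 8329 normalized counts against 12848, 13876 and 5877, the groups overlapping (log2 difference −1.06, SE 0.52; limma, adjusted p = 0.85). Mir99ahg, with let-7c-1, was at 40.3, 48.3 and 67.8 against 119, 47.5 and 177. Huwe1 and Wdr82, which contain let-7f-2, miR-98 and let-7g, had log2 differences of 0.06 and −0.01.

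Other known targets of let-7 gave no call. Of 28 listed, 26 were tested, 19 were positive and 7 negative, and the median was 0.13 (0.08 without WT 6); 20 of the 28 held the seed motif in the longest 3′ UTR. Fas, the death receptor gene, was at 75.5, 261 and 47.5 normalized counts in lines labelled WT and at 401, 329 and 496 in those labelled Rag1KO, and its groups lay apart (log2 difference −2.03, SE 0.67; limma, adjusted p = 0.85). Thbs1, encoding thrombospondin 1, was at 777 in WT 6, 143841 in WT 4 and 500480.5 or more in the other 4 lines. Its log2 difference was −4.20 with all lines and −1.31 without WT 6. The insulin receptor gene Insr was at 3551 ± 622 normalized counts against 2820 ± 326, and Arid3b, a DNA-binding protein gene, at 115 ± 40.8 against 173 ± 25.0 (SD, n = 3 each). Nr6a1, the gene with the most seed matches of all at 8, was at 312 to 499.8 normalized counts in the 6 lines. Trim71, a stem cell gene with 4 matches that was named after its values were seen, was at 679 normalized counts in WT 6 and at most 16.2 elsewhere.

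The mRNAs known to be bound by IGF2BP proteins were split. Of 20 listed, 19 were tested, 10 positive and 9 negative, with a median of 0.02. Myc was at 4993, 3263 and 7282 normalized counts in lines labelled WT and at 3929, 3402 and 3322 in those labelled Rag1KO, so WT 4 lay below all of the latter. Lamb2, a laminin chain gene, was at 15875, 10620.2 and 3412 against 16633, 36850.4 and 27821, with a log2 difference of −1.63 (SE 0.62; limma, adjusted p = 0.85) and −0.99 without WT 6. Fscn1, the actin-bundling protein gene, was at 15284 ± 6255 against 23899 ± 1865 (SD, n = 3 each). Lamb2 and Fscn1 had groups that lay apart, with lines labelled Rag1KO higher, and WT 6 was the lowest line for both. Pabpc1, the poly(A)-binding protein gene, lay apart the other way, at 84637 to 89602 normalized counts against 69493 to 79383. In all, 3 of the 19 (15.8%) had groups that lay apart, where 12.1% of all genes tested did. Igf2, which gave the family its name, was nearly silent, at 121 normalized counts in WT 4, 10.7 in Rag1KO 7, 1.01 in WT 2 and 0 reads in the other 3. Mapk4, another IGF2BP1 target, was at most 61.4 in any line.

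Genes that write, erase or read m6A, the mark that IGF2BP proteins recognise, gave no call either. Of 18 tested, 13 were positive and 5 negative, and the median was 0.17. The groups of 3 (16.7%), namely Mettl3, Mettl16 and Hnrnpc, lay apart with the lines labelled WT higher, where 6.49% of all genes tested did in that direction and 12.1% in either. Mettl16, a methyltransferase, was at 2248, 2335 and 2358 normalized counts in lines labelled WT and at 1996, 1979 and 1957 in those labelled Rag1KO, a small difference with a narrow spread (log2 difference 0.23, SE 0.15; limma, adjusted p = 0.85). Wtap, a subunit of the writer, was at 4422 ± 940 against 3330 ± 435, Hnrnpc at 13081 ± 1526 against 10738.5 ± 1059, and the eraser gene Fto at 6837 ± 1638 against 9060.5 ± 1805 (SD, n = 3 each). Of 12 protein partners of IGF2BP in RNA granules, 9 were positive and 3 negative, with a median of 0.23. The groups of 2 (16.7%), Hnrnpu and Pabpc1, lay apart with the lines labelled WT higher. Of all genes tested, 6.49% did so in that direction and 12.1% in either. Syncrip was at 10289 ± 2245 normalized counts against 7608 ± 934, Hnrnpu at 26014 ± 4651 against 20966 ± 1522, Elavl1, which encodes HuR, at 4561 ± 638 against 3664 ± 793, and Ybx1 at 28274.5 ± 2308 against 22526 ± 7364.

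Other high mobility group genes were split evenly. Of 14 tested, 7 were positive and 7 negative, with a median of −0.01, and WT 6 was the highest line for 4 of them. Hmga1b, whose reads cannot be fully separated from those of Hmga1, is counted among the positive genes and among these 4. Hmgb3 was at 1126, 1290.0 and 1613 normalized counts in lines labelled WT and at 1062, 755 and 998.8 in those labelled Rag1KO, its groups lying apart (log2 difference 0.52, SE 0.24; limma, adjusted p = 0.85). Hmgb1 was at 22592 ± 1451 against 18224 ± 5019, and Ssrp1, a histone chaperone subunit, at 15251 ± 3857 against 12768.5 ± 2551 (SD, n = 3 each).

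Of 15 other oncofetal genes listed, 8 passed the filter and 0 passed the test. All 8 had a negative log2 difference, with a median of −1.28. That median rested on single lines, being −0.29 without Rag1KO 7, −0.76 without WT 6 and −3.02 without WT 4. Without WT 6, 6 remained negative, and Cdh3 and Meg3 were at 2.56 and 0.43. Since they were kept by the filter partly through the lines in which they are high, that count is a description. Of the listed genes that failed the filter, Peg3, Afp, Igf2 and Trim71 had positive log2 differences of 3.76, 1.77, 1.46 and 0.97. Gpc3 had a negative one of −2.51, and Sall4 and Epcam had 0 reads in every line. Peg3 was at 447, 45.4 and 0 normalized counts in lines labelled WT and at most 2.91 in those labelled Rag1KO. Afp was at most 33.4 normalized counts. Dlk1, an imprinted gene for a Notch-like protein, was at 41.3, 904 and 2.64 normalized counts in lines labelled WT and at 637, 76.5 and 2478 in those labelled Rag1KO. H19, an imprinted RNA and a classical IGF2BP1 partner, was at 397 in Rag1KO 7 and at most 46.3 elsewhere. Cd24a, a surface glycoprotein gene, was at 1679, 354 and 1.76 against 4501, 3013 and 409, and Tpbg, the trophoblast glycoprotein gene, at 2581 ± 479 against 2840 ± 476 (SD, n = 3 each). Dlk1 and H19 were thus highest in Rag1KO 7, the line labelled Rag1KO with the least Igf2bp1.

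**Figure D5:**
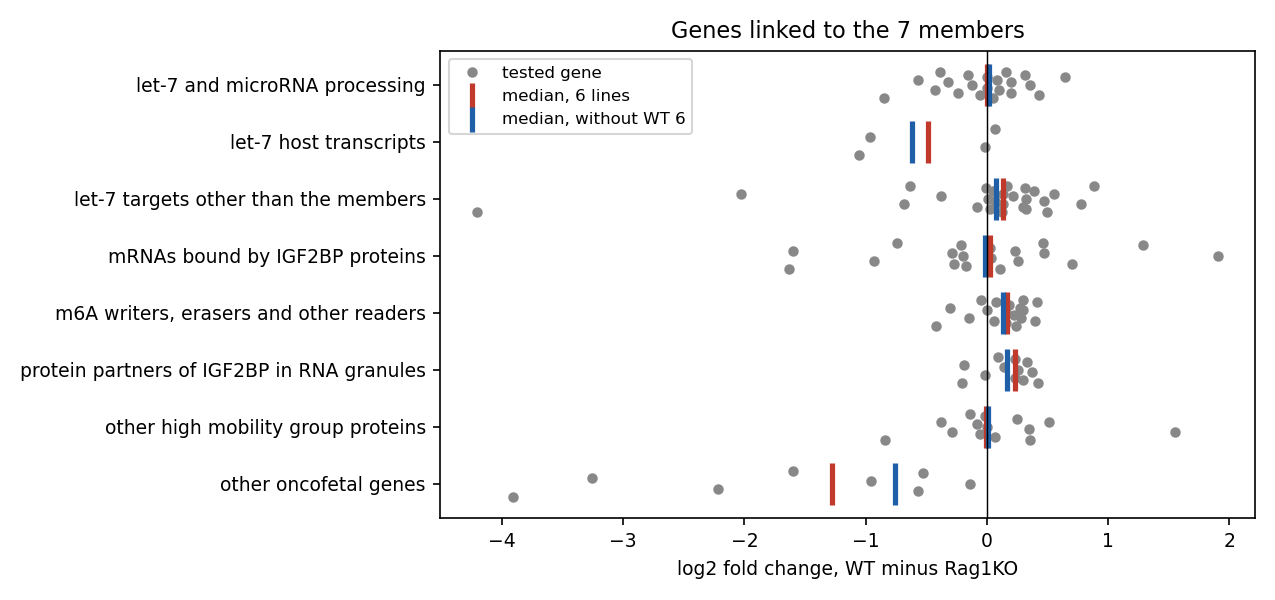
log2 difference (WT minus Rag1KO, on the scale of log2(normalized count + 1)) of each tested gene in the 8 lists linked to the 7 genes, with the median over 6 lines in red and without WT 6 in blue. Medians lie between −0.01 and 0.23 except for let-7 host transcripts (−0.49, from 4 genes) and other oncofetal genes (−1.28), and none of the genes shown passed the test.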

How the data were processed

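RNA from 6 lines was made into libraries with a TruSeq Stranded kit, per the labels' protocols. The submitters' processing notes name STAR 2.7.9a, DESeq2, FastQC, Trim Galore 0.6.6 and the build mm10, without stated roles. The read counter and annotation are not given in the sources used here. The deposited signal values are reads per gene divided by 1 size factor per library. All were whole reads (within 0.01) after multiplication, and the factors equalled median-of-ratios factors. Of 55401 gene IDs, 55141 matched GENCODE M21, from which coordinates and lengths come.

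Genes were kept by filterByExpr on the recovered reads (16137). limma 3.58.1 with a mean-variance trend was fitted to log2(value + 1), 3 lines against 3, two-sided, with Benjamini-Hochberg adjustment over all genes, a threshold of 0.05 and intervals at 95%. A log2 difference on this scale understates the change of low genes. Lists are described by counts and medians, with no set test. Alternatives were edgeR 4.0.16 and DESeq2 1.42.0 on the recovered reads, pseudocounts of 0.1 and 10, other filters and scalings, and each line left out. Both count tools without WT 6 were added after seeing the data. The fits were tested on simulated data. R 4.3.3, Python 3.11.15 and matplotlib 3.10.9 were used.

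The 7 genes and the lists were chosen with earlier results of these data known. Named genes are the 7, Rag1, the 4 genes of lowest p in each list, the 6 most and 3 least like Igf2bp1 (predicted models and sex-linked genes left out), and the nearest tested protein-coding neighbours. Other genes were named after their values were seen.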

Additional observations from a re-analysis of the deposited data

How the results depend on the processing

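The number of genes past the threshold between the groups was 1 (limma, Y-linked Eif2s3y) and depended on the test. It was 0 in edgeR, 65 in DESeq2 (20 higher in lines labelled WT), 0 in edgeR without WT 6 and 145 in DESeq2 without WT 6. Leaving out 1 line at a time in limma gave 0 to 5, the highest without WT 6. Those 5 were all sex-linked. Eif2s3y, Kdm5d, Uty and Ddx3y were higher in lines labelled Rag1KO, and Xist was higher in those labelled WT. Under both pseudocounts, filters and scalings limma called 1. Over the 16 alternatives the log2 differences of Igf2bp2, Igf2bp3, Hmga1 and Hmga2 kept their sign. They ranged from 0.14 to 0.71 for Igf2bp2, −7.20 to −0.94 for Igf2bp3, 0.60 to 2.34 for Hmga1 and 0.40 to 2.03 for Hmga2. None of these 4 passed under any alternative that gave a p, their lowest adjusted p being 0.665 (Hmga1, DESeq2). Of the 6 genes most like Igf2bp1, 3 stayed among the first 6 without WT 6, and 4 had the highest Spearman correlation, which 18 genes shared. The order of the mean levels of the 5 expressed genes per kilobase was the same with the longest transcript as length, but in Rag1KO 7 Igf2bp3 then stood above Igf2bp2. No paired analysis was possible because the labels give no pairing of lines between the groups. Depth limits what can be said of Lin28a and Lin28b, of Igf2bp1 in the lines labelled WT (1 to 25 reads) and of Igf2bp3 in WT 6 (2 reads).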
